A study of Homo sapiens with 6 samples.

Results

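Relative PCR measurements divide the signal of a gene of interest by that of a reference gene, which is assumed to be present at the same level in every sample. The genes described here are 7 common PCR reference genes other than GAPDH, namely ACTB, HPRT1, TBP, YWHAZ, GUSB, PPIA and TFRC. They were found by their gene symbol in a table of 19973 genes, in which each of the 7 symbols occurs in 1 row, and all 7 passed the filter on low counts that left 12874 genes for testing. RNA-seq had been carried out in OVCAR3, a cell line established from a human ovarian carcinoma, after transfection with a control hairpin (shNC, genotype label WT, 3 libraries) or with a hairpin against NUF2 (shNUF2, genotype label NUF2 knockdown, 3 libraries). Both groups of cells had received a plasmid with a puromycin resistance gene and had been kept in puromycin to obtain stable lines. The hairpin is transcribed from a U6 promoter, and 1 hairpin sequence against NUF2 was used. Nothing in the labels says whether the 3 libraries of a group came from separate cultures, so that p-values measure the spread between these libraries, which may be technical.

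A good reference gene is transcribed in every cell for a function that the treatment does not touch. The 7 genes serve unrelated functions. ACTB encodes the cytoskeletal beta-actin, HPRT1 a purine salvage enzyme, TBP the TATA-binding protein of the general transcription machinery, and YWHAZ the adaptor protein 14-3-3 zeta. GUSB encodes the lysosomal beta-glucuronidase, PPIA the prolyl isomerase cyclophilin A and TFRC the receptor that takes up transferrin-bound iron. In this cell model NUF2, a component of the NDC80 complex that attaches kinetochores to spindle microtubules, was depleted, and the study quantified ERBB3, a receptor tyrosine kinase, by PCR with GAPDH as the reference.

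The libraries held between 13057534 and 16995452 counts, and the biological coefficient of variation over all genes was 4.93%. The targeted gene NUF2 was covered by 903, 1096 and 1092 reads in the shNC libraries and by 281, 290 and 384 in the shNUF2 libraries, a log2 fold change of -1.51 (SE 0.08). Of 10 ovarian epithelial markers, 7 were abundant enough to be tested, and KRT7 had at least 7485 reads in every library, whereas WFDC2, WT1 and KRT19 were near absent with at most 1, 7 and 8 reads. The summed level of 4 leukocyte markers was 1.18 to 2.10 CPM (reads scaled to a common library total) with shNC and 2.83 to 5.44 CPM with shNUF2, with CD3E at no more than 1 read and PTPRC at no more than 11. That of 3 endothelial markers was 1.78 to 3.40 and 3.33 to 4.90 CPM, and that of 4 fibroblast markers, of which COL1A1 made up most, was 81.5 to 87.7 and 60.3 to 67.2 CPM. The summed level of the ovarian epithelial markers was 1531 to 1644 CPM with shNC and 1625 to 1765 CPM with shNUF2, although its members moved in opposite directions. MSLN had 5829 to 6594 reads per library with shNC and 3020 to 3496 with shNUF2, and MUC16 had 713 to 873 and 371 to 445. KRT8 had 4967 to 5648 reads with shNC and 8963 to 10296 with shNUF2. The leukocyte and fibroblast sums were separate between the groups, the endothelial and epithelial sums overlapped, and their part in the results was not tested. In bulk RNA, fewer cells of a type and less RNA per cell cannot be told apart, and each level is a share of a library's reads rather than an amount per cell.

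Sequence matching between the hairpin and the reference genes is given first because a target site would make a reference gene doubtful. Whether genes with a site changed in level was not tested. The guide strand of shNUF2, read from the hairpin sequence that the study lists, is printed with its seed (bases 2 to 8) in capitals.
shNUF2 guide: aAATTGCTgaatggtaagaag
The complementary seed site, AGCAATT on the transcript, was present in 0 of the 7 reference genes, counted over all their coding transcripts of GENCODE release 29, compared with 25.1% of the 12838 tested genes with a coding transcript. The longest exact match between the 21-base target and a coding transcript was 6 bases for HPRT1, 9 bases for PPIA and 7 or 8 bases for the other 5 genes. NUF2 itself held the complete target in 6 of 6 coding transcripts. A match or its absence is a description of these letters only.

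The first question was which reference genes kept their level after NUF2 knockdown. Of the 7 genes, HPRT1, ACTB and YWHAZ were higher with shNUF2, GUSB and TBP were lower, and PPIA and TFRC did not pass the test. The changes ranged from a rise of 48.0% for HPRT1 to a fall of 32.1% for GUSB in normalized counts, given as CPM after TMM scaling. A gene was called changed when its p, adjusted by Benjamini-Hochberg over the 12874 genes, was under 0.05 in edgeR's quasi-likelihood test. By this rule 5 of 7 reference genes were called, 3 higher and 2 lower, beside 67.6% of all genes tested, 33.9% higher and 33.8% lower. The share of called reference genes was therefore near that of all genes. The median absolute log2 fold change was 0.25 for the 7 reference genes and 0.38 for all genes tested, and the median signed change was -0.03 and -0.01.

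**Figure D1:**
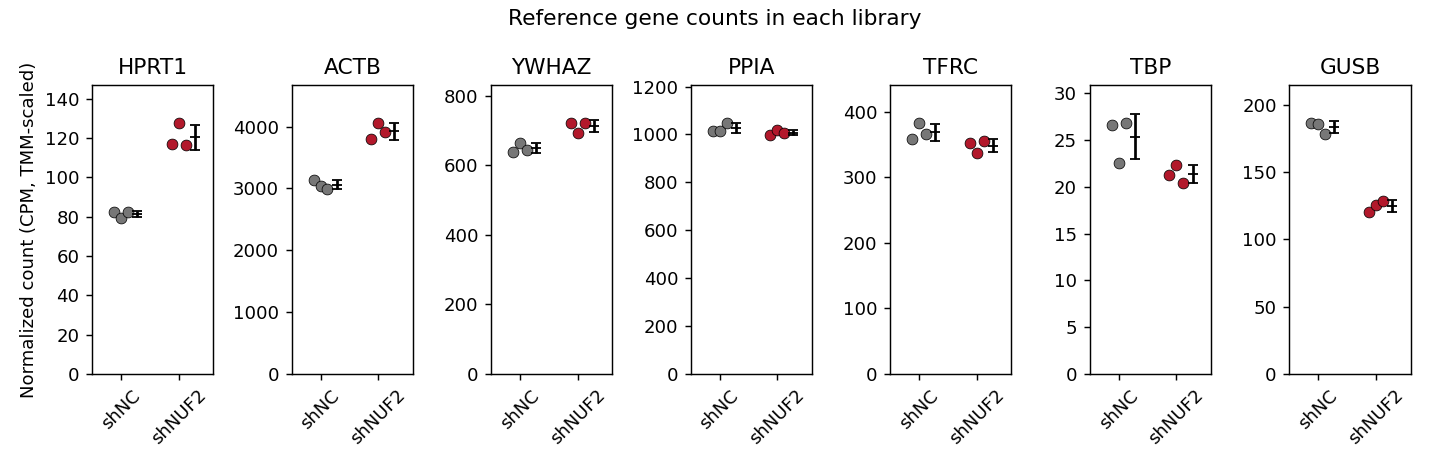
Normalized counts (CPM of the TMM-scaled library, linear axes from 0, a scale of its own for each gene) of the 7 reference genes, with 1 point per library and bars for the mean ± SD of 3 libraries per group (shNC grey, shNUF2 red). HPRT1 and GUSB lie far apart between the groups in opposite directions, whereas the PPIA libraries of both groups lie between 998 and 1049 CPM.

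HPRT1 showed the largest rise of the 7 genes. It recycles hypoxanthine and guanine into purine nucleotides, and lies on the X chromosome of GRCh38 from 134460165 to 134520513 on the plus strand (ENSG00000165704). The shNC libraries held 1168, 1270 and 1418 HPRT1 reads, and the shNUF2 libraries 1578, 1662 and 1750. Every shNUF2 library held more HPRT1 reads than every shNC library, although the shNUF2 libraries were smaller on average. Normalized counts were 81.4 ± 1.64 CPM with shNC and 120 ± 6.45 CPM with shNUF2 (SD, n = 3), with shNUF2 replicate 2 the highest at 128 CPM. The log2 fold change was 0.57 (SE 0.05, 95% interval 0.46 to 0.67, adjusted p = 2.55e-10 in edgeR's quasi-likelihood test), a change larger in size than that of 66.5% of all genes tested.

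ACTB, the most abundant of the 7 genes, was also higher. The gene lies on chromosome 7 from 5526409 to 5563902 on the minus strand (ENSG00000075624). Its normalized counts were 3144, 3044 and 2997 CPM with shNC and 3793, 4064 and 3920 CPM with shNUF2. The groups did not overlap, and the lowest shNUF2 library stood well above the highest shNC library. The rise of 28.2% corresponded to a log2 fold change of 0.36 (SE 0.04, 95% interval 0.28 to 0.44, adjusted p = 6.20e-09 in edgeR's quasi-likelihood test). With 44689 to 58954 reads per library, counting error was at most 0.47% of the level.

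YWHAZ rose by less than either. The gene lies on chromosome 8 from 100916523 to 100953388 on the minus strand (ENSG00000164924). It had 639, 665 and 645 CPM with shNC and 722, 693 and 722 CPM with shNUF2. The groups were separate, but by only 27.9 CPM between the nearest libraries. The rise of 9.66% gave a log2 fold change of 0.13 (SE 0.04, 95% interval 0.05 to 0.22, adjusted p = 0.00477 in edgeR's quasi-likelihood test). In limma on log2(FPKM + 1) and log2(FPKM + 0.1), YWHAZ was not called (adjusted p = 0.105 and 0.123).

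GUSB fell most. The enzyme removes glucuronic acid residues from glycosaminoglycans in the lysosome, and its gene lies on chromosome 7 from 65960684 to 65982215 on the minus strand (ENSG00000169919). The shNC libraries contained 2656, 2967 and 3072 GUSB reads, compared with 1620, 1630 and 1936 after knockdown. No shNUF2 library reached the lowest shNC library, before or after scaling. Normalized counts fell from 184 ± 4.47 to 125 ± 4.30 CPM (SD, n = 3), with a log2 fold change of -0.56 (SE 0.05, 95% interval -0.65 to -0.46, adjusted p = 4.39e-11 in edgeR's quasi-likelihood test).

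TBP, the least abundant of the 7 genes, was lower as well. It lies on chromosome 6 from 170554302 to 170572870 on the plus strand (ENSG00000112592). Only 378, 361 and 462 TBP reads were counted in the shNC libraries, and 287, 290 and 307 in the shNUF2 libraries. Scaled to the library, these were 26.6, 22.6 and 26.9 CPM with shNC and 21.3, 22.3 and 20.4 CPM with shNUF2. The groups did not overlap, but shNC replicate 2 lay within 0.28 CPM of the highest shNUF2 library. Normalized counts fell by 15.8%, with a log2 fold change of -0.25 (SE 0.10, 95% interval -0.45 to -0.05, adjusted p = 0.0242 in edgeR's quasi-likelihood test). Counting error alone reached 5.90% of the level in 1 library, the largest of the 7 genes. The call was lost without shNC replicate 1 (adjusted p = 0.0704), without shNC replicate 3 (adjusted p = 0.0935), without shNUF2 replicate 3 (adjusted p = 0.0819) and in the Wald test of DESeq2 (adjusted p = 0.0506), with the direction kept.

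PPIA moved least of the 7 genes. Cyclophilin A is an abundant cytosolic prolyl isomerase and the receptor of the immunosuppressant cyclosporin, and its gene lies on chromosome 7 from 44796680 to 44824564 on the plus strand (ENSG00000196262). PPIA had 1013, 1014 and 1049 CPM with shNC and 998, 1018 and 1006 CPM with shNUF2. The libraries of both groups were interleaved, and PPIA was the only 1 of the 7 genes whose groups overlapped (exact permutation test, two-sided, p = 0.3). The log2 fold change was -0.03 (SE 0.04, 95% interval -0.11 to 0.05, adjusted p = 0.558 in edgeR's quasi-likelihood test), and 3.69% of all genes tested had a smaller absolute change. Before any scaling, 14400, 16210 and 18054 PPIA reads were counted in the shNC libraries and 13445, 13231 and 15127 in the shNUF2 libraries, the same order as that of the library totals within each group.

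TFRC did not pass the test. The gene lies on chromosome 3 from 196027183 to 196082096 on the minus strand (ENSG00000072274), and its transcript is known to be stabilised by iron regulatory proteins when iron is scarce. TFRC had 358, 384 and 366 CPM with shNC and 352, 337 and 356 CPM with shNUF2. The groups did not overlap, with 2.52 CPM between the nearest libraries. The log2 fold change was -0.08 (SE 0.04, 95% interval -0.17 to 0.0043, adjusted p = 0.0857 in edgeR's quasi-likelihood test). TFRC was called lower when libraries were scaled by their totals only (adjusted p = 0.0136), without a filter on low counts (adjusted p = 0.0228) and without shNC replicate 1 (adjusted p = 0.0314).

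Non-overlap of the groups was found for 6 of the 7 genes, beside 70.6% of all genes tested. For each of these 6 genes the exact permutation test of the normalized counts gave p = 0.10 (two-sided), the smallest value that 3 against 3 libraries allow. The study's thresholds for a differentially expressed gene, with its fold change read here on the log2 scale, are a change beyond 1 and an unadjusted p under 0.05. Of the 7 reference genes 0 met them, whereas 13.6% of all genes tested did.

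A p that misses the threshold does not show that a gene kept its level, so constancy was assessed from the interval. A gene was called constant when the 95% interval of its log2 fold change lay within ±0.25, a margin that corresponds to a rise of 18.9%. PPIA, TFRC and YWHAZ met this rule, which is 3 of 7 reference genes beside 12.4% of all genes tested. The rule needs a narrow interval and so depends on read depth, and the 12.4% was not matched to the 7 genes for abundance. YWHAZ was both called higher and constant within the margin, as were 1.65% of all genes tested. TBP missed the margin on its lower side, and the intervals of HPRT1, ACTB and GUSB lay completely outside it. With a margin of 0.5, TBP and ACTB were constant as well (5 of 7 genes), and with a margin of 0.1 none was (0 of 7 genes), since the lower bound for PPIA was -0.11.

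**Figure D2:**
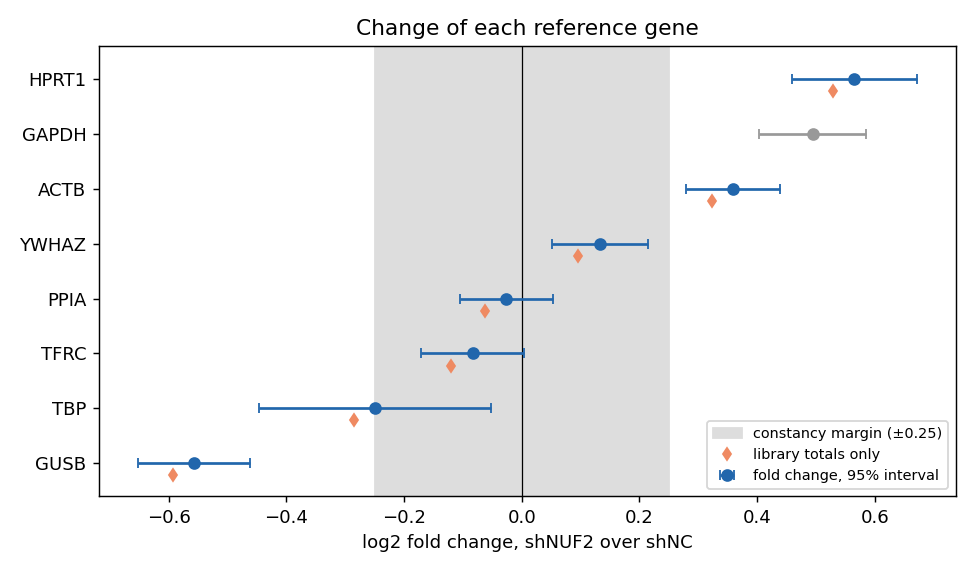
Log2 fold change of shNUF2 over shNC with its 95% interval for the 7 reference genes (blue) and for GAPDH (grey), with the value obtained from library totals alone as a diamond for the 7 genes and the constancy margin of ±0.25 shaded. The intervals of YWHAZ, PPIA and TFRC lie within the shaded band, that of TBP crosses its lower edge, and those of HPRT1, GAPDH, ACTB and GUSB lie outside it.

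GAPDH, the reference of the study, had 2583 ± 151 CPM with shNC and 3639 ± 181 CPM with shNUF2 (SD, n = 3). Its log2 fold change of 0.49 (SE 0.04, adjusted p = 1.82e-10 in edgeR's quasi-likelihood test) lay between those of ACTB and HPRT1.

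The promoters of the 2 genes that moved least and the 2 that moved most are shown, so that constant and changed genes can be read side by side at the core promoter, where transcription starts. Promoter sequences were taken from a table of RefSeq promoters (GRCh38.p14), in which 5 of the 7 genes were matched, and those of ACTB and YWHAZ were not used here. Each sequence covers the 100 bases before the RefSeq start on the strand of the gene, with every TATAAA and GGGCGG, on either strand, in capitals. The windows are chr7:44796581-44796680 (plus strand) for PPIA, chr3:196082091-196082190 (minus strand) for TFRC, chrX:134460065-134460164 (plus strand) for HPRT1 and chr7:65982214-65982313 (minus strand) for GUSB.
PPIA: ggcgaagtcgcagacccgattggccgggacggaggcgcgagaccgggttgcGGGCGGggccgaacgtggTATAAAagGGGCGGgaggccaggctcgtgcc
TFRC: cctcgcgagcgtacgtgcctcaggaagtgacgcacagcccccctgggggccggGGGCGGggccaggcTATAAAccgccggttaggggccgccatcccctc
HPRT1: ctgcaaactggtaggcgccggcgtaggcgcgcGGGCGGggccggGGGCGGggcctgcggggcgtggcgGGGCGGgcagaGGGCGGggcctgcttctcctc
GUSB: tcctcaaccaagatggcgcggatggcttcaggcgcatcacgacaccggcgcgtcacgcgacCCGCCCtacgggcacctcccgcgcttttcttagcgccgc
TATAAA, the core of the TATA box, started 31 bases before the start in PPIA and 33 bases before it in TFRC, the position at which a TATA box is usually found. It was in no window of HPRT1, GUSB or TBP, and in 4.99% of 35116 RefSeq promoters of the same length. GGGCGG, the GC box, occurred 4 times in HPRT1, 2 times in PPIA, once each in TFRC and GUSB (on the opposite strand in GUSB) and not in TBP, and was in 31.3% of all promoters. These matches are a description of the windows, and with 5 promoters nothing about the changes in level was tested with them.

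Ratios between reference genes do not depend on how libraries are scaled, since both genes are read in the same library. All 21 pairs were compared as the log2 ratio of reads, shNUF2 minus shNC. The shNC and shNUF2 libraries were separate in 19 pairs and overlapped in 2 pairs, PPIA over TFRC and TFRC over TBP. The smallest p that a pair can reach is 0.10 (exact permutation test, two-sided), and after Benjamini-Hochberg adjustment over the 21 pairs the smallest was 0.111. The change was beyond 0.25 in 14 pairs, beyond 0.5 in 8 pairs and beyond 1 in 1 pair.

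The pair that differed most was HPRT1 over GUSB. Per GUSB read there were 0.440, 0.428 and 0.462 HPRT1 reads with shNC and 0.974, 1.02 and 0.904 with shNUF2. The ratio thus rose 2.18-fold (log2 difference 1.12, SE 0.06), past a log2 fold change of 1, which neither gene reached alone. ACTB over GUSB rose by 0.92 (SE 0.03) on the log2 scale, from 16.8, 16.4 and 16.8 reads per GUSB read to 31.6, 32.4 and 30.5. HPRT1 over TBP rose by 0.81 (SE 0.07) and YWHAZ over GUSB by 0.69 (SE 0.04).

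Among the 3 genes that were constant within the margin, PPIA and TFRC kept their ratio best. There were 2.83, 2.64 and 2.87 PPIA reads per TFRC read with shNC and 2.83, 3.02 and 2.83 with shNUF2, a log2 difference of 0.06 (SE 0.05; exact permutation test, two-sided, p = 0.4). The groups overlapped, since shNC replicate 3 lay above shNUF2 replicates 1 and 3. YWHAZ over PPIA rose by 0.16 (SE 0.04) and YWHAZ over TFRC by 0.22 (SE 0.01), from 1.78, 1.73 and 1.76 YWHAZ reads per TFRC read to 2.05, 2.05 and 2.03. HPRT1 and ACTB, which both rose, still differed from each other, with a log2 difference of 0.21 (SE 0.03) in their ratio.

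**Figure D3:**
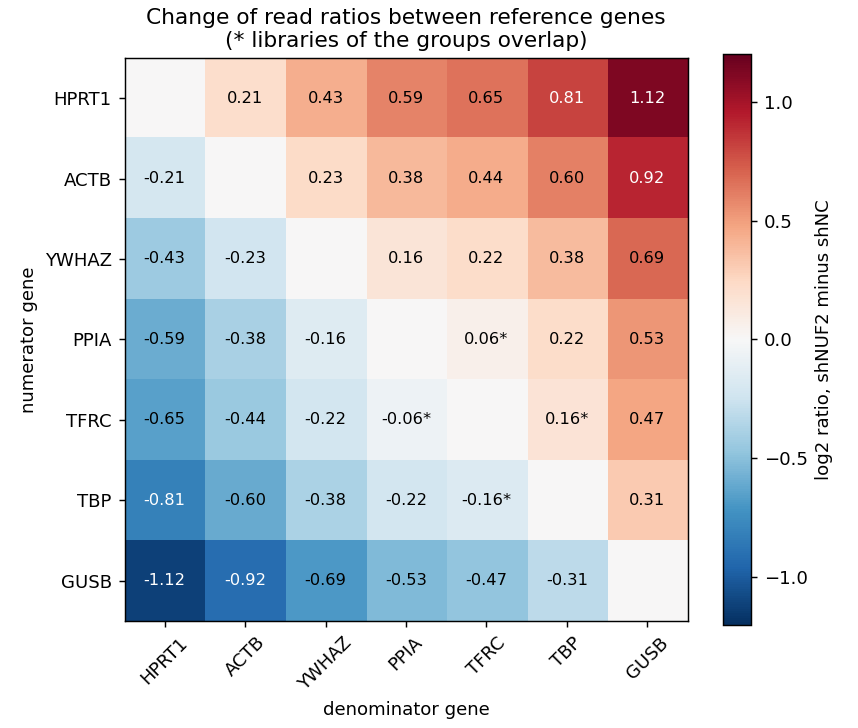
Change of the log2 read ratio between each pair of reference genes (rows over columns, shNUF2 minus shNC, mean over 3 libraries per group), coloured from blue for a lower to red for a higher ratio, with an asterisk where the libraries of the groups overlap. Values grow from the middle towards the corners, from 0.06 for PPIA over TFRC to 1.12 for HPRT1 over GUSB.

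For each gene, the SD over all 6 libraries of its log2 ratio to each of the other 6 genes was averaged, a measure of how stably it is expressed relative to the other genes. A lower value stands for a gene that is more stable relative to the other 6. Since both groups enter, the value depends on how near a gene's change lies to those of the others. It is therefore not separate from the fold changes above. The order was PPIA (0.191), YWHAZ and TFRC (0.204 each), TBP (0.259), ACTB (0.262), HPRT1 (0.355) and GUSB (0.379). YWHAZ and TFRC could not be separated by this measure, and TBP and ACTB were close to each other. When the SD was taken within the groups instead, so that the difference between shNC and shNUF2 did not enter, the values were 0.0597 to 0.118, with PPIA lowest and TBP highest. GUSB and HPRT1 had within-group values of 0.0682 and 0.0724, close to that of YWHAZ (0.0689), so that replicates of a single condition did not set the 2 genes apart from the others.

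What the choice of reference does to a measured knockdown was then calculated for ERBB3 and NUF2, with each reference gene in turn as the divisor within a library. These are read ratios from RNA-seq and not PCR values. The shNC libraries held 2223, 2188 and 2501 ERBB3 reads, and the shNUF2 libraries 588, 588 and 713. Relative to HPRT1, ERBB3 with shNUF2 was 20.8%, 19.7% and 22.7% of the shNC mean in the 3 libraries, and relative to GUSB it was 45.7%, 45.4% and 46.3%. The remaining ERBB3 was thus 21.0% with HPRT1, 24.3% with ACTB, 28.4% with YWHAZ, 31.7% with PPIA, 32.9% with TFRC, 36.8% with TBP and 45.8% with GUSB, and 22.1% with GAPDH. The highest of the 7 values was 2.18 times the lowest, which by construction is the factor by which HPRT1 over GUSB changed. On the log2 scale ERBB3 differed by -2.25 (SE 0.07) with HPRT1, by -1.66 (SE 0.07) with PPIA and by -1.13 (SE 0.06) with GUSB. ERBB3 was lower with shNUF2 under every one of the 7 divisors and GAPDH, with no overlap between the groups (exact permutation test, two-sided, p = 0.10 for each).

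For NUF2 the order of divisors is the same by construction, since a ratio changes by the target's change less that of the divisor. NUF2 was 23.7% of shNC with HPRT1, 27.3% with ACTB, 31.9% with YWHAZ, 35.7% with PPIA, 37.1% with TFRC, 41.5% with TBP and 51.6% with GUSB, and 24.9% with GAPDH. With the geometric mean of PPIA, TFRC and YWHAZ as the divisor, 30.9% of ERBB3 and 34.8% of NUF2 remained, and with that of all 7 genes 30.7% and 34.5%. Either geometric mean gave nearly the same value for both targets. Without any reference gene, the group means of the normalized counts fell by 68.9% for ERBB3 and fell by 64.9% for NUF2.

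**Figure D4:**
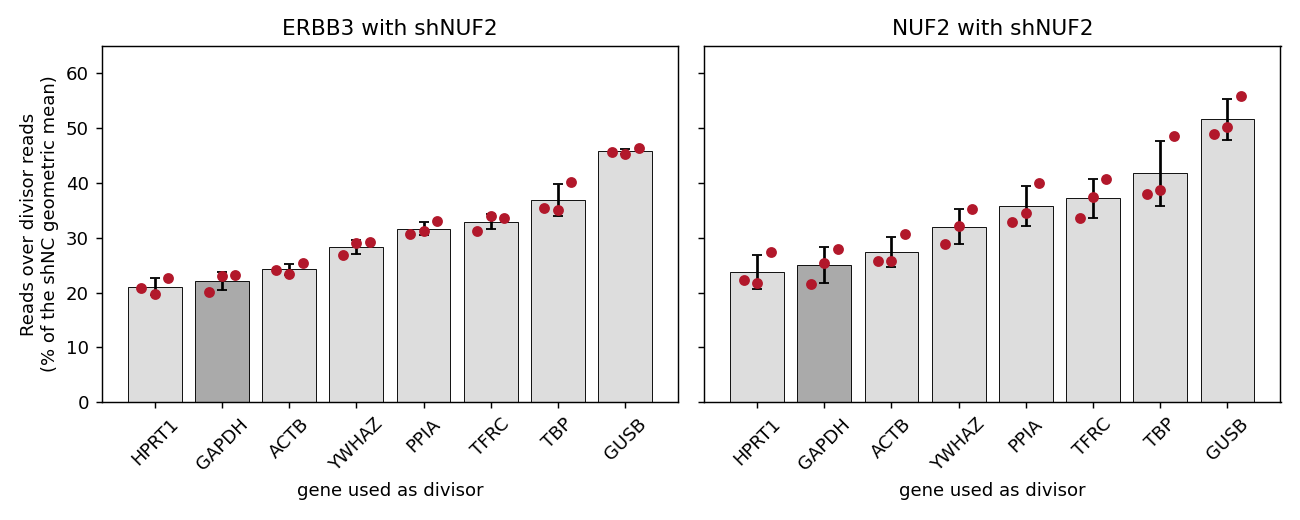
Reads of ERBB3 (left) and NUF2 (right) over reads of the divisor gene in the shNUF2 libraries, as a percentage of the geometric mean of the shNC libraries, with 1 point per library and bars for the mean ± SD of 3 libraries, the GAPDH bar in darker grey. The bars climb from HPRT1 to GUSB in both panels. With geometric means over the libraries of both groups, the values run from 21.0% to 45.8% for ERBB3 and from 23.7% to 51.6% for NUF2.

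Levels can be compared between genes only per length, for which the deposited FPKM (fragments per kilobase of gene, scaled to the library total) were used. With shNC, ACTB stood at 704 ± 15.0 FPKM, PPIA at 153 ± 3.20, YWHAZ at 76.8 ± 2.00, HPRT1 at 51.1 ± 0.82, TFRC at 48.0 ± 1.95, GUSB at 47.8 ± 1.16 and TBP at 11.1 ± 1.00 FPKM (SD, n = 3). TFRC and GUSB did not differ beyond their spread, and the lowest HPRT1 library, at 50.2 FPKM, lay just above the highest TFRC library, at 50.1 FPKM. With shNUF2, HPRT1 at 73.7 ± 4.53 FPKM approached YWHAZ at 82.1 ± 1.41, and GUSB at 31.6 ± 1.31 fell below TFRC at 44.1 ± 0.99. ACTB at 879 ± 38.7, PPIA at 147 ± 2.86 and TBP at 9.08 ± 0.45 FPKM kept their places. The lengths in the table exceeded those of the longest coding transcripts, with 6780 against 2238 bases for PPIA and 8557 against 5248 bases for YWHAZ. With the longest coding transcript as length instead, PPIA was at 464, GUSB at 80.8, TFRC at 73.1 and HPRT1 at 58.5 with shNC, so that the order of the last 3 genes was turned. Fold changes are not affected by the length.

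Several reference genes have pseudogenes, whose reads cannot always be told from theirs. Of all 50-base windows in the coding transcripts of PPIA in GENCODE release 29, 15.8% also occur in a transcript of another gene, most of them in PPIAP22. The share was 8.16% for YWHAZ, 6.66% for ACTB, 1.66% for GUSB and 0.97% for TBP, whereas HPRT1 and TFRC shared no window. The annotation names 88 pseudogenes after PPIA, 11 after GUSB, 10 after ACTB, 8 after YWHAZ, 3 after HPRT1 and none after TBP and TFRC. How the counting divided such reads is not given in the sources used here, so the PPIA, YWHAZ and ACTB counts are uncertain to that extent. ACTB and TFRC each overlap 2 annotated genes, all on the opposite strand, and the other 5 genes overlap none.

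The families and pathways of the members were examined from lists of their genes, to see whether a relative would have behaved like the member. Each list holds the member itself, which enters the counts and the median of its list. The second cytoplasmic actin, ACTG1, rose from 1463 ± 49.3 to 2347 ± 38.0 CPM (log2 fold change 0.68, SE 0.04, adjusted p = 2.16e-14 in edgeR's quasi-likelihood test), more than ACTB. The other 4 of 6 actin genes had too few reads to be tested.

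Of the 7 genes for 14-3-3 proteins, 6 were higher and 1 was lower with shNUF2, beside 33.9% higher and 33.8% lower among all genes tested, with a median log2 fold change of 0.25 beside -0.01. YWHAZ changed least of the 7 and was the only 1 within the constancy margin. SFN, the epithelial 14-3-3 sigma, showed the largest rise at 0.80 (SE 0.05), and YWHAE the fall at -0.19 (SE 0.04).

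Of 15 cyclophilin genes tested, 5 were higher, 7 were lower and 3 were not called, with a median of -0.04, in a background of 33.9% higher and 33.8% lower. PPIC, which encodes the cyclophilin of the secretory pathway cyclophilin C, fell from 26.4 ± 2.29 to 11.4 ± 2.28 CPM (log2 fold change -1.21, SE 0.12), whereas PPID, a cochaperone of HSP90, was higher by 0.50 (SE 0.07). PPIA, PPIE and NKTR were the 3 genes within the constancy margin, NKTR being also called higher.

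For TFRC, the list comprised 11 genes of iron uptake and storage, of which 10 were tested, 3 were higher, 2 were lower and 5 were not called, where 67.6% of all genes tested were called. IREB2, which encodes iron regulatory protein 2, was lower by -0.40 (SE 0.05), and STEAP3, the endosomal ferrireductase, was higher by 0.58 (SE 0.06). The ferritin light chain gene FTL was higher by 0.53 (SE 0.04). The ferritin heavy chain gene FTH1 (-0.03, SE 0.07), the ferritin autophagy receptor gene NCOA4 (-0.08, SE 0.04) and ACO1, which encodes iron regulatory protein 1 (-0.05, SE 0.05), lay within the constancy margin with TFRC.

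For TBP, 15 genes of TFIID subunits and TBP relatives were tested, with TBP itself among them. Of these, 4 were higher, 7 were lower (TBP included) and 4 were not called, with a median of -0.01. Among all genes tested, 67.6% were called. The list ran from TAF12 at -0.72 (SE 0.13) to TAF10 at 0.70 (SE 0.15), and TAF11 (0.06, SE 0.09) was the only 1 within the margin.

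For HPRT1 the list was that of its pathway. Of 14 genes of purine synthesis and salvage, 11 were lower, 2 were higher and 1 was not called, with a median log2 fold change of -0.44, compared with 33.8% lower, 33.9% higher and a median of -0.01 among all genes tested. The genes higher were HPRT1 at 0.57 (SE 0.05) and IMPDH1, an IMP dehydrogenase, at 0.15 (SE 0.05). PFAS, an enzyme of the de novo pathway, fell from 150 ± 5.56 to 81.9 ± 6.99 CPM (log2 fold change -0.87, SE 0.06, adjusted p = 1.91e-13 in edgeR's quasi-likelihood test). APRT, the salvage enzyme for adenine and the nearest counterpart of HPRT1 in function, was lower by -0.49 (SE 0.08).

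For GUSB, 20 genes were tested, namely lysosomal glycoside and sulfate hydrolases, GUSB itself among them, and CTSA, which is not such a hydrolase. Of these, 9 were higher (CTSA included), 7 were lower (GUSB included) and 4 were not called, with a median of 0.06. The background was the same, with 33.9% higher and 33.8% lower. IDUA, the iduronidase that like GUSB degrades glycosaminoglycans, fell from 25.8 ± 2.04 to 7.59 ± 1.73 CPM (log2 fold change -1.77, SE 0.13), and CTSA, the protective protein of the lysosomal neuraminidase complex, rose from 136 ± 11.8 to 269 ± 9.05 CPM (0.98, SE 0.05).

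Whether another reference would have kept its level was examined in 22 other genes used as PCR references, with GAPDH, described above, among them. A second list held 11 genes that have been proposed as housekeeping genes from RNA-seq across human tissues. Of the 22 PCR references, 9 were higher (GAPDH included), 10 were lower and 3 were not called, with a median of -0.07. ABL1 (0.03, SE 0.04) and B2M (-0.01, SE 0.04) were constant within the margin. MRPL19, a mitochondrial ribosomal protein gene, fell from 74.1 ± 2.79 to 12.6 ± 0.69 CPM (log2 fold change -2.56, SE 0.08, adjusted p = 3.70e-20 in edgeR's quasi-likelihood test). SDHA, a subunit of respiratory complex II, rose from 9.83 ± 0.86 to 18.8 ± 0.96 CPM (0.93, SE 0.12), and its low count limits this value. Of the 11 genes proposed from RNA-seq, 4 were higher, 4 were lower and 3 were not called, and REEP5 (-0.01, SE 0.06), EMC7 (-0.09, SE 0.07), PSMB2 (-0.10, SE 0.05) and PSMB4 (-0.11, SE 0.04) were constant, the last of them being also called lower. These 11 ran from VPS29 at -0.56 (SE 0.05) to VCP at 0.57 (SE 0.04). Over both lists, GAPDH included, 27 of 33 genes were called and 6 of 33 were constant within the margin, beside 67.6% and 12.4% of all genes tested.

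**Figure D5:**
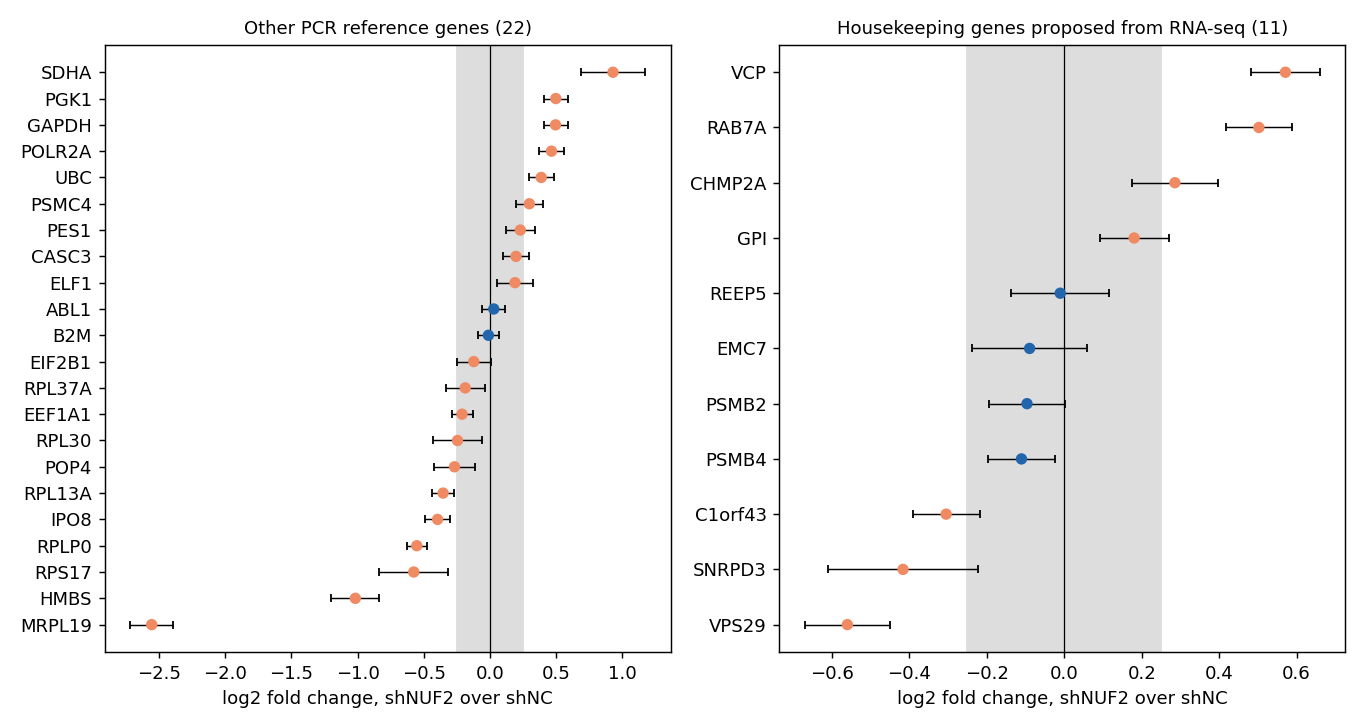
Log2 fold change of shNUF2 over shNC with its 95% interval for 22 other PCR reference genes (left) and 11 housekeeping genes proposed from RNA-seq (right), with the constancy margin of ±0.25 shaded, genes constant within it in blue and all others in orange, and a scale of its own for each panel. ABL1, B2M, REEP5, EMC7, PSMB2 and PSMB4 lie within the band, and MRPL19 at -2.56 lies farthest from it.

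Finally, the genes most like each member were sought among the 6467 other genes whose average log2 CPM was 5 or more, by the SD over the 6 libraries of the log2 ratio of normalized counts. The 6 points are libraries of 2 groups that share their scaling, and the values are a description. PPIA was followed closely by HMGB2 (SD 0.0114) and C1orf35 (0.0115), and TNKS2 (0.0216) was 1 of the 2 genes closest to TFRC. For YWHAZ these were CAT (0.0127) and CLASRP (0.0132), and for ACTB they were PSMD4 (0.00570) and ZC3H12A (0.0160). GUSB was accompanied by JKAMP (0.0102) and HAT1 (0.0213), HPRT1 by C9orf78 (0.0328) and P3H1 (0.0329), and TBP by LMBR1 (0.0353) and ARAF (0.0466). Counting error reached 5.90% for TBP and 2.93% for HPRT1 in a library, and it stayed at or below 2.48% for the other 5 genes. GUSB, at 2.48%, had an SD of 0.0102 to JKAMP, and the part of counting error in these SDs was not tested.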

How the data were processed

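The 6 libraries were grouped by their labels. The members and all gene lists were chosen with earlier results of these data known. The authors deposited raw read counts per gene and FPKM values, which equal the count over gene length and library total (largest relative deviation 2.71e-07). The submitters' processing notes name cutadapt, HISAT, HTSeq and the build GRCh38.p13, with versions not given in the sources used here.

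The test was that of edgeR 4.0.16 under R 4.3.3 (filterByExpr, TMM, quasi-likelihood test, all 6 libraries, no covariate, Benjamini-Hochberg adjustment), with a self-test on simulated data. SE is the log2 fold change over the square root of F, and the 95% interval was taken from it. Single values and ratios were compared by exact permutation tests (scipy 1.17.1, Python 3.11.15). Total counts were 13057534 to 16995452 per library, and counting error covers sampling of reads only. Alternatives were DESeq2 1.42.0, limma 3.58.1 on log2 FPKM, other scalings and filters, a replicate block and each library left out. Named genes are the 7 members, NUF2, ERBB3, GAPDH and ACTG1, the called genes with the lowest and highest fold change of each list, constant genes of the reference lists and the 2 genes most like each member. IMPDH1, APRT, FTL, FTH1, NCOA4, ACO1, PPIE, NKTR and TAF11 were named after their values were seen. Some genes of these lists, among them 1 of the 2 genes most like TFRC, are not reported here.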

Additional observations from a re-analysis of the deposited data

How the results depend on the processing

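The 7 log2 fold changes kept their direction under 15 alternatives (other scalings, tests, filters, FPKM, the replicate block and each library left out). Of these values 96 also kept their side of the threshold, 6 lost a call and 3 gained one. ACTB, HPRT1 and GUSB were called under all 15 alternatives and PPIA under none, with log2 fold changes of 0.32 to 0.38, 0.52 to 0.59, -0.59 to -0.53 and -0.06 to -0.004. TBP was called under 11 of 15 (-0.33 to -0.21), YWHAZ under 13 (0.09 to 0.15) and TFRC under 3 (-0.12 to -0.06). For these the cause was not tested. PPIA, TFRC and YWHAZ were constant within ±0.25 under all 15. The number of constant genes was 5 with a margin of 0.5 and 0 with a margin of 0.1, by construction. With a library left out, the log2 difference of ERBB3 was -2.31 to -2.20 with HPRT1 as the divisor and -1.18 to -1.09 with GUSB. FPKM give the same ratios as counts by construction. Scaling by library totals alone shifted the median of all genes to -0.05 and omitting the filter to 0.07. The labels number the libraries 1 to 3 in both groups, but deviations of same-numbered libraries correlated at 0.03, 0.01 and -0.04. Of 6 libraries, 2 correlated best with their own number. No shared deviation by number was thus seen, which cannot tell whether same-numbered libraries were prepared together. With the replicate block 5 genes were called and 3 were constant, as without it. Depth limits TBP most, with 287 to 462 reads per library.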
